A study of Mus musculus with 12 samples.

Results

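Mice that had lost both functional copies of Slc6a20a were compared with mice that had lost 1 copy, in RNA from the whole brain. The comparison rests on 8 of the 12 mice of the series, 4 homozygous Slc6a20a-/- mice (HM) and 4 heterozygous Slc6a20a+/- mice (HT), which were chosen by the genotype in their labels. All of them were male mice of the strain C57BL/6N at about postnatal day 120, and both genotypes carry an allele that lacks exon 3 of the gene, on 1 chromosome in HT and on both in HM mice. No driver that restricts the deletion to a tissue is named in the sources used here. Crosses of heterozygous parents gave the animals. The study set each mutant genotype against the 4 wild-type (WT) mice, which carry no deleted allele, and the direct contrast of HM with HT mice asks what differs with the loss of the second copy. WT values are given below only as a reference level and entered no test. For 19775 genes, the table deposited by the authors holds normalized counts, estimated reads per gene put on a common scale between libraries with DESeq2. The test took in the 17986 genes whose mean in the 8 mice reached 10 normalized counts.

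SLC6A20A belongs to the SLC6 family of transporters, which use the sodium gradient to move neurotransmitters and amino acids into cells. It carries proline and glycine. Glycine opens inhibitory glycine receptors and is also a co-agonist of the NMDA receptor, a glutamate receptor that needs both ligands to open, so the uptake of glycine can set how much of it surrounds synapses. In the brain, Slc6a20a is known for its expression in the meninges and the choroid plexus, the epithelium that makes cerebrospinal fluid.

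In the mouse genome (GRCm38, GENCODE M21), Slc6a20a (ENSMUSG00000036814) spans positions 123634770 to 123678885 of chromosome 9, read from the minus strand. The deleted exon is shown first because it defines the allele, and the junction that its removal would leave is shown next to it. Exon 3 of the transcript Slc6a20a-201, at chr9:123662949-123663040, is 92 bases long and entirely coding. The second sequence joins the last 30 bases of exon 2 to the first bases of exon 4, and its capitals mark the first stop codon that the shifted frame meets.
Slc6a20a exon 3: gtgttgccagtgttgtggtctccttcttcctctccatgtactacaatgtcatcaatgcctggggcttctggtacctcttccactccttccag
Slc6a20a exon 2 to exon 4: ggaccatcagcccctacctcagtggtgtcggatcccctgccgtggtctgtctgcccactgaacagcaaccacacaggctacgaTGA
In such a joined transcript the stop codon would come 53 bases after the junction, within exon 4, after 105 codons, against 592 codons in the full reading frame. The table gives 1 value per gene over all of its exons, so reads of exon 3 and of the junction were not examined apart.

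Slc6a20a was much lower in HM than in HT mice, and it was the 1 gene of 17986 that passed the adjusted threshold. HT mice had 332, 366, 372 and 310.3 normalized counts, and HM mice had 69.0, 55.6, 76.5 and 57.1. The highest HM mouse lay far below the lowest HT mouse. The means were 345 ± 29.1 in HT and 64.5 ± 9.95 in HM mice (SD, n = 4 each), against 679 ± 70.1 in WT mice. HM mice therefore kept 18.7% of the HT level. On the log2(normalized count + 1) scale, on which all fold changes here are given as HM minus HT, the difference was -2.41 (SE 0.12, 95% interval -2.68 to -2.14). The test was limma's moderated test with Benjamini-Hochberg (BH) adjustment over all genes, and the adjusted p was 1.79e-06. The exact two-sided permutation test gave p = 0.0286, the smallest value that 4 mice against 4 allow.

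The rest of the locus was examined for genes that moved with the deleted allele. Slc6a20b, the neighbouring paralog on the same strand (chromosome 9, 123590800 to 123632565), encodes a related transporter and could share reads with Slc6a20a. Its normalized counts were 30.2, 33.4, 19.4 and 25.3 in HT mice and 11.1, 15.7, 17.3 and 23.8 in HM mice. The groups overlapped, since 1 HM mouse exceeded the lowest HT mouse. The log2 fold change of Slc6a20b was -0.66 (SE 0.28, limma, unadjusted p = 0.0323), which did not pass after adjustment.

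Both transcripts with an unadjusted p under 0.05 inside Slc6a20a itself lay in its intron 7 (chromosome 9, 123641915 to 123655002) and overlap each other on opposite strands. They are Gm47173 (123643166 to 123645489, plus strand) and Gm47171 (123644194 to 123646987, minus strand), 2 annotated transcripts of unknown coding status. Gm47173 had 46.6, 49.7, 41.4 and 34.7 normalized counts in HT mice and 17.2, 11.5, 34.4 and 15.4 in HM mice. The HM values all lay below the HT values, the closest pair being 34.4 and 34.7. Its log2 fold change was -1.20 (SE 0.29, limma, unadjusted p = 0.00147, BH-adjusted p = 0.730). Gm47171 had 49.6, 64.2, 41.6 and 36.0 normalized counts in HT and 47.5, 18.2, 32.6 and 25.3 in HM mice, with overlapping groups and a log2 fold change of -0.66 (SE 0.28). The library kit named in the labels does not mark the strand, so reads of these transcripts and of the unspliced Slc6a20a RNA cannot be told apart. Within 1 Mb of Slc6a20a on either side, the table held 38 other genes, of which 35 were tested. Of these, 3 were lower in HM mice at an unadjusted p under 0.05 (Slc6a20b and both intronic transcripts), 1 was higher (Gm35549, 0.81 on the log2 scale, SE 0.34), and 31 were not past it, with log2 fold changes from -0.43 to 0.47. Of all genes tested, 1.62% were lower and 2.11% were higher at this p.

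**Figure D1:**
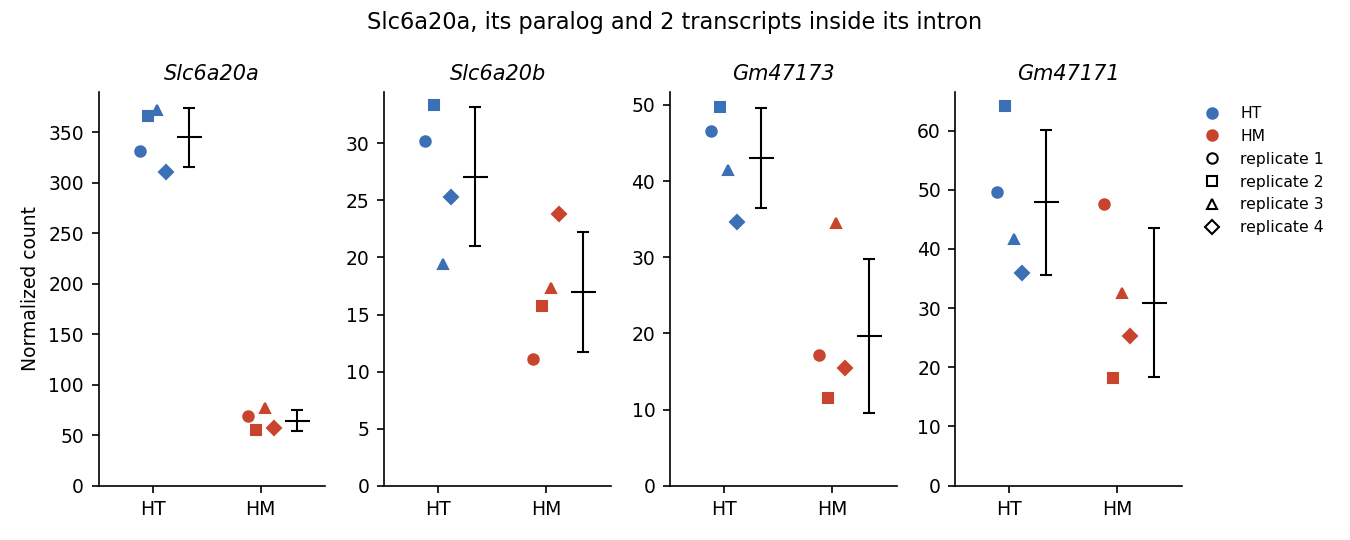
Normalized counts (y axis, starting at 0, own scale in each panel) of Slc6a20a, Slc6a20b, Gm47173 and Gm47171 in each of the 4 HT and 4 HM mice. Points are mice, marked by replicate number, and bars are mean ± SD. Slc6a20a fell from 345 to 64.5 normalized counts with no overlap, whereas HT and HM mice overlapped for Slc6a20b and Gm47171.

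Beyond Slc6a20a, the loss of the second copy was accompanied by no difference that passed the adjusted threshold, which 0.00556% of all tested genes reached. Without adjustment, 672 genes (3.74% of those tested) had a p under 0.05. Of these, 380 (2.11%) were higher and 292 (1.62%) were lower in HM mice. Groups did not overlap for 428 genes (2.38%). The 4 HM values lay entirely above the 4 HT values for 223 genes (1.24%) and entirely below for 205 genes (1.14%). The median log2 fold change of all genes was -0.00086. The 95% interval of the log2 fold change reached 0.17 to either side of the estimate for the median gene. The whole interval lay within ±0.5 for 13584 genes (75.53%) and within ±1 for 16923 genes (94.09%), so a 2-fold difference was outside the interval for most transcripts. A log2 fold change beyond 1 in size was seen for 94 genes, and 69 of them had a mean under 50 normalized counts. Of the 20 genes with the smallest p after Slc6a20a, 18 were higher in HM mice and 2 were lower, and 10 belonged to the olfactory bulb lists described next.

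**Figure D2:**
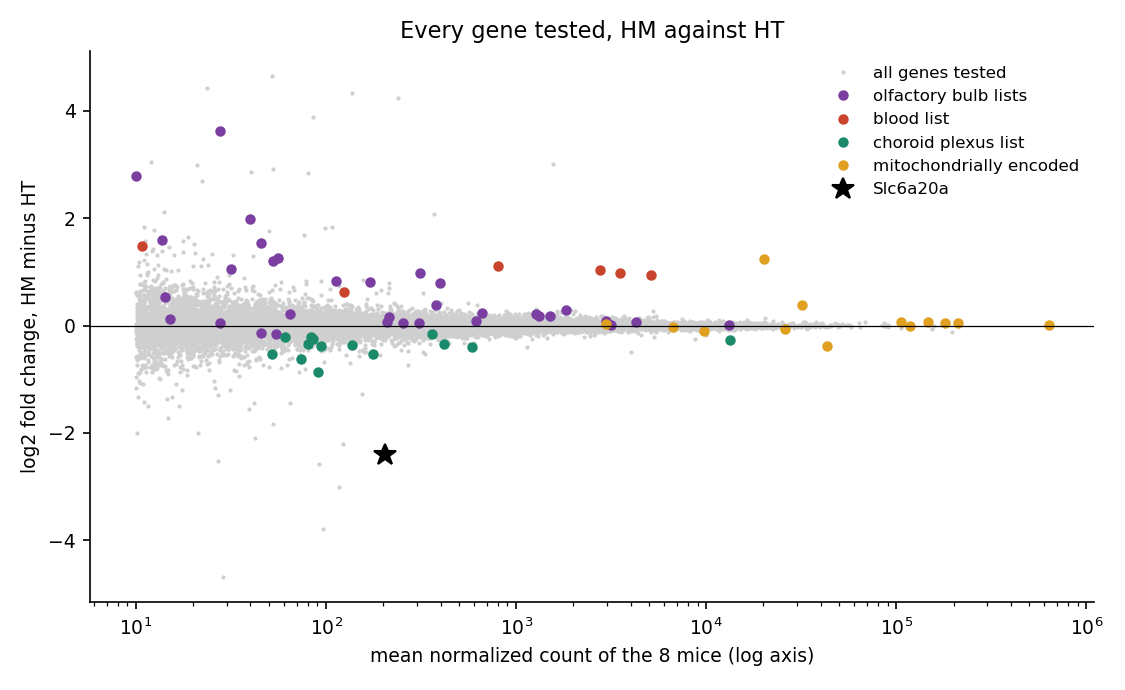
Log2 fold change of HM minus HT mice (y axis) against the mean normalized count of the 8 mice (x axis, log scale) for the 17986 genes tested. Grey points are all genes, coloured points are members of the olfactory bulb, blood and choroid plexus lists and the mitochondrially encoded genes, and the star is Slc6a20a at -2.41. Most of the olfactory bulb genes lie above 0, and all 14 choroid plexus genes lie below it.

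The olfactory bulb receives the axons of olfactory sensory neurons from the nose. These axons contact mitral and tufted cells, the projection neurons of the bulb, and local interneurons, the granule and periglomerular cells, shape the output. Transcripts that mark these cells were higher in HM than in HT mice. Of 33 genes in 3 olfactory lists, all of which were tested, 18 were higher at an unadjusted p under 0.05 and 0 were lower, which is 54.55% higher against 2.11% of all genes. None passed the adjusted threshold (limma, BH). The lists were chosen with earlier results of these data known, and 8 of their genes are listed by the study for HM mice. The 54.55% is therefore not a share of independently chosen genes. Groups did not overlap for 15 of the 33 genes, against 2.38% of all genes, and 31 had a log2 fold change above 0, with a median of 0.21. In RNA of a whole brain, more cells of a type, more of its tissue in the sample and more RNA per cell cannot be told apart.

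Among projection neuron genes, 6 of 9 were higher, with a median log2 fold change of 0.98 over the list. Eomes (chromosome 9, 118478212 to 118486132), a T-box transcription factor of mitral and tufted cells, had 32.8, 17.5, 20.3 and 20.7 normalized counts in HT mice and 83.5, 44.1, 59.5 and 86.5 in HM mice. The lowest HM mouse was above the highest HT mouse, and the mean was 3.00 times as high. Its log2 fold change was 1.53 (SE 0.26, limma, unadjusted p = 5.57e-05, BH-adjusted p = 0.283). Tbx21, another T-box factor of the same cells, had 8.42, 3.48, 5.97 and 7.36 in HT and 29.6, 13.9, 19.2 and 21.2 normalized counts in HM mice, again without overlap (log2 fold change 1.59, SE 0.34).

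Cdhr1 (chromosome 14, 37077857 to 37098347) encodes a cadherin-related protein of mitral and tufted cells and of photoreceptors. It had 276, 276, 342 and 258 normalized counts in HT and 557, 391, 449 and 636 in HM mice. Doc2g (chromosome 19, 4003313 to 4007005), a member of the double C2 domain family, had 264, 190.1, 208 and 169 in HT and 460.4, 277, 443 and 482 in HM mice. All 4 HM mice exceeded all 4 HT mice for either gene. The log2 fold changes were 0.80 (SE 0.14) for Cdhr1 and 0.98 (SE 0.17) for Doc2g, each with an adjusted p of 0.283 (limma, BH). Ms4a15, which encodes a membrane protein of the MS4A family, was near the lower limit of detection in HT mice, with 7.42, 5.49, 2.10 and 0 normalized counts, and reached 51.4, 15.0, 49.1 and 89.6 in HM mice. The log2 fold change of Ms4a15 was 3.62 (SE 0.65), and HM replicate 2 was again the lowest of its group. Shisa3, whose HM and HT mice overlapped by 1 mouse, had 30.8 ± 9.59 normalized counts in HT and 74.2 ± 29.3 in HM mice.

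The 250 bases before the start sites of 3 of these genes are printed because their transcripts moved together (RefSeq, GRCm38.p6). Capitals mark TAATTG or its reverse complement CAATTA, a sequence of the kind that homeodomain transcription factors bind. The stretches are chr9:118477939-118478188 on the plus strand for Eomes, chr14:37098348-37098597 on the minus strand for Cdhr1 and chr19:4003135-4003384 on the plus strand for Doc2g.
Eomes promoter: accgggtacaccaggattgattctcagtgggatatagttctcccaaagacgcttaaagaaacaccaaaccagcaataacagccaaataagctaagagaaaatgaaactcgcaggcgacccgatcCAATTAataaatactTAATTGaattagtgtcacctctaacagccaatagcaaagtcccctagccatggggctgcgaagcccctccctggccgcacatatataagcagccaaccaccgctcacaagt
Cdhr1 promoter: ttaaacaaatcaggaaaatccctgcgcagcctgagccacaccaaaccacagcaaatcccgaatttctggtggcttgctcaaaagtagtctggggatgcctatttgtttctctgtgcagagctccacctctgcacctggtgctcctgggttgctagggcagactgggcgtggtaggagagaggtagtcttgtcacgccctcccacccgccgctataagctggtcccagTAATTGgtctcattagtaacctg
Doc2g promoter: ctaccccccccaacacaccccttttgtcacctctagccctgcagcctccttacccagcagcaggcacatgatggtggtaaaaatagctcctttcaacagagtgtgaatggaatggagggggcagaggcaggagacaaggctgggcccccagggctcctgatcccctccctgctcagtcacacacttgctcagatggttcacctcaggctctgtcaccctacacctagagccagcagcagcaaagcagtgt
Of the 33 olfactory genes, 26 had an entry, and TAATTG was found on either strand in 5 of them. TAATTG was in 7.17% of all 32851 promoters of this length. A second homeodomain sequence, TAATTA, was in 3 of the 26 (4.84% of all). The T-box sequence GGTGTGA was likewise in 3 (3.33% of all). TAATTA and TAATTG differ in their last letter and can lie side by side but not at the same place. These are matches of letters and not binding sites.

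Sensory axon genes were higher for 2 of 5. Omp (chromosome 7, 98143359 to 98145502), the olfactory marker protein of mature olfactory sensory neurons, had 16.9, 10.2, 17.0 and 13.9 normalized counts in HT and 87.5, 26.2, 57.6 and 89.2 in HM mice. There was no overlap, and the mean was 4.50 times as high in HM mice (log2 fold change 1.97, SE 0.35, limma, BH-adjusted p = 0.283). S100a5, a calcium-binding protein of the same neurons, had 4.61, 1.18, 0.986 and 0 in HT and 20.6, 2.83, 21.7 and 28.3 normalized counts in HM mice. HM replicate 2 fell within the HT range for S100a5. The other 3 sensory axon genes had unadjusted p-values above 0.05.

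Bulb interneuron genes had the smallest differences of the olfactory lists, with a median log2 fold change of 0.18, but 19 of 19 were above 0 and 10 were higher at an unadjusted p under 0.05. Lgr6, a receptor for R-spondins, had 128, 124, 137 and 100.5 normalized counts in HT and 228, 160.2, 234 and 250.3 in HM mice, without overlap (log2 fold change 0.82, SE 0.15). Frmd7, which encodes a FERM domain protein, had 37.5, 29.0, 31.9 and 26.5 in HT and 72.9, 41.9, 85.7 and 120.3 in HM mice, again apart (log2 fold change 1.25, SE 0.27). Scgn, secretagogin, a calcium-binding protein of granule and periglomerular cells, had 19.0, 18.9, 15.3 and 27.2 in HT and 46.9, 31.1, 47.0 and 46.0 in HM mice. Its lowest HM mouse was above its highest HT mouse.

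Gng4, a G protein gamma subunit, was far more abundant, with 1648 ± 74.1 normalized counts in HT and 2026 ± 147 in HM mice (log2 fold change 0.30, SE 0.06, limma, BH-adjusted p = 0.343). The transcription factors of this list that were higher were Sp8 (log2 fold change 0.83), Pbx3 (0.23), Dlx1 (0.21) and Tshz1 (0.18), and none of them overlapped between groups. Calb2, which encodes calretinin, and Th, the rate-limiting enzyme of dopamine synthesis that periglomerular cells share with midbrain neurons, were higher with overlapping groups, by 0.18 (SE 0.05) and 0.38 (SE 0.14) on the log2 scale. Sp8, Pbx3, Dlx1, Tshz1, Calb2 and Th are also expressed outside the bulb.

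The olfactory genes varied together from mouse to mouse. HM replicate 2 had the lowest of the 4 HM values for 15 of the 18 genes, and HM replicate 4 the highest for 14. Summed over the projection neuron list, HT mice had 634.6 to 767.6 normalized counts and HM mice 930.3 to 1569, while WT mice, at 661.5 to 980.6, overlapped both. The WT mean lay between the HT and HM means for 13 of the 18 genes and below the HT mean for the other 5. With each mouse left out in turn, 16 to 19 of the 33 genes were higher at an unadjusted p under 0.05. When HM replicate 2 was left out, the adjusted threshold (limma, BH) was passed by the projection neuron genes Eomes, Cdhr1 and Doc2g, by Omp and by the interneuron genes Lgr6 and Frmd7. The number of each animal in the column names starts with the same 3 digits in both genotypes only for HT replicates 1 and 2 and HM replicate 4, and what these digits stand for is not given in the sources used here. Their part in the difference was not tested.

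**Figure D3:**
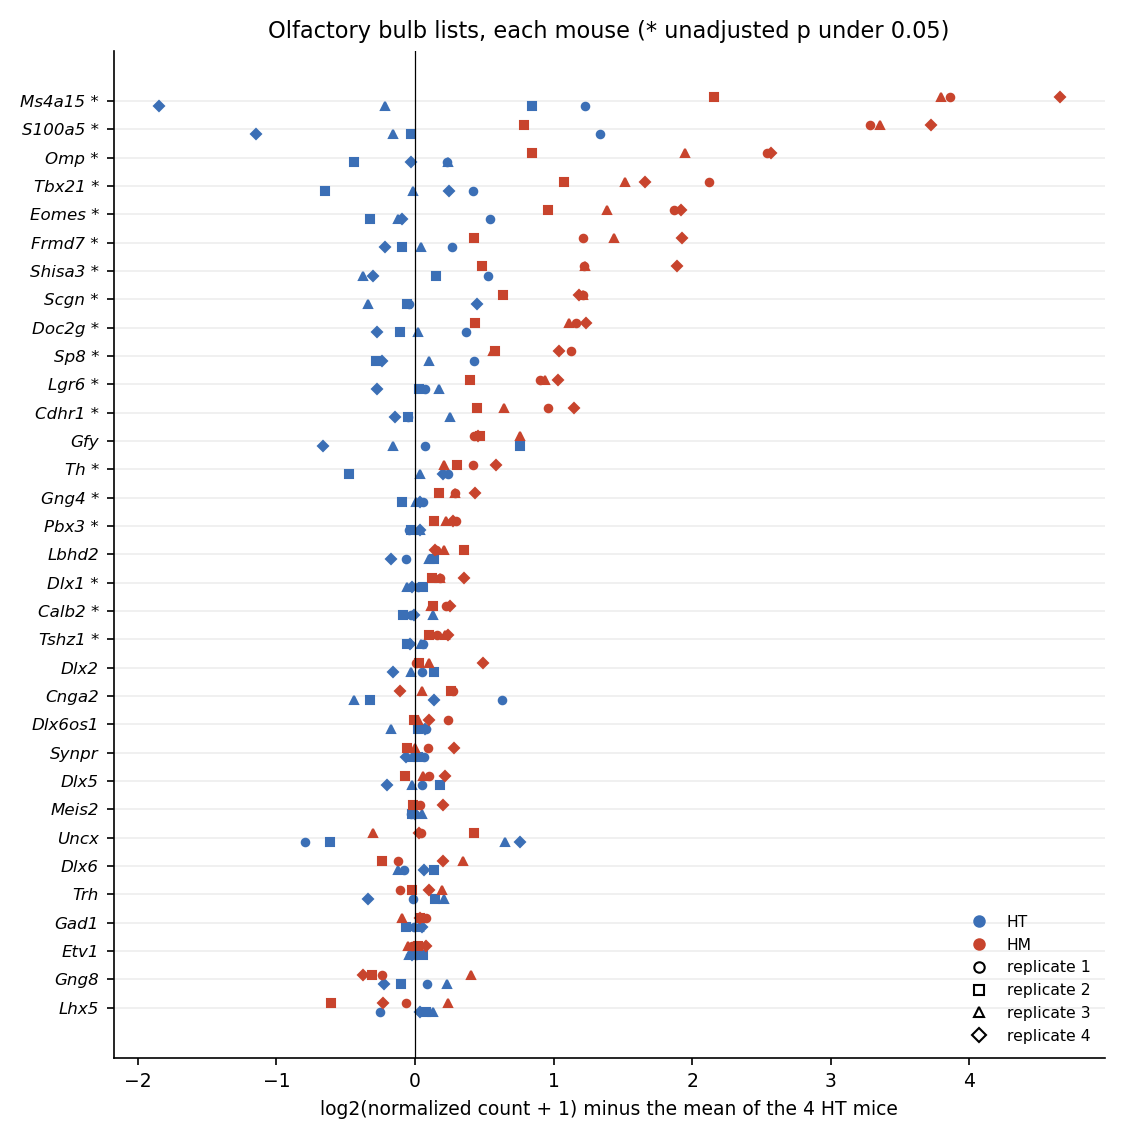
The 33 genes of the olfactory bulb lists in each mouse, as log2(normalized count + 1) minus the mean of the 4 HT mice (x axis), ordered by log2 fold change. Points are mice, coloured by genotype and marked by replicate number, and asterisks mark an unadjusted p under 0.05. The red HM points lie to the right of the blue HT points for the upper genes, and the square of HM replicate 2 is mostly the HM point nearest to them.

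Red blood cell transcripts were also higher in HM mice, but with a wide spread. Of 6 genes in the blood list, 5 were higher at an unadjusted p under 0.05, against 2.11% of all genes (median log2 fold change 1.00 over the list), with no adjusted p under 0.05. The alpha globin gene Hba-a1 had 1495, 1389.7, 1808 and 1997 normalized counts in HT mice and 6440.2, 4466, 1462 and 3136 in HM mice. HM replicate 3 lay within the HT range, and HM replicate 1 was the highest. Hba-a2 (log2 fold change 0.97, SE 0.34) and the beta globin genes Hbb-bs (0.94, SE 0.37) and Hbb-bt (1.11, SE 0.38) had the same order of HM mice. Each pair of globin genes is similar in sequence, so the split of reads within a pair is uncertain.

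Alas2, the first enzyme of heme synthesis in erythroid cells, had 73.3, 93.9, 78.6 and 98.5 normalized counts in HT and 293, 192, 44.5 and 120.2 in HM mice and did not pass (log2 fold change 0.62, 95% interval -0.29 to 1.53). Slc4a1, the anion exchanger of the red cell membrane, went the other way in HM replicate 3, which had 45.1 normalized counts against 8.0 to 8.41 in the other HM mice and 3.58 to 4.47 in HT mice. Summed over the list, blood transcripts reached 5904 to 29031 normalized counts in HM, 6499 to 8721 in HT and 7783 to 21987 in WT mice, so that the HT mice had the narrowest range. Leaving out HM replicate 3 brought both alpha and both beta globin genes past the adjusted threshold (limma, BH), all of them higher. Gm37206, which is not in the blood list, was also higher past it, and mt-Co3 was lower.

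The mitochondrial genome encodes 13 proteins of the respiratory chain, all of which were tested. Of these genes, 2 were higher in HM mice at an unadjusted p under 0.05, against 2.11% of all genes. mt-Atp6, a subunit of ATP synthase, had 31368, 27924, 27461 and 23769.6 normalized counts in HT and 35527, 35967, 32285 and 40792 in HM mice, without overlap (log2 fold change 0.39, SE 0.08). mt-Co2, a subunit of cytochrome c oxidase, had 14290.2, 11990.3, 7221 and 13946 in HT and 17638, 22368, 44261 and 30048 in HM mice (log2 fold change 1.23, SE 0.26, limma, BH-adjusted p = 0.474). WT mice held 34697 ± 24602 normalized counts of mt-Co2, a spread wider than the difference between HT and HM mice. mt-Co3, another subunit, had 26353, 20416, 99916 and 22279 in HM and 36166 to 51415 in HT mice, so that 1 HM mouse was above and 3 were below the HT range. The log2 fold change of mt-Co3 was -0.39 (SE 0.38) in all 8 mice and -0.92 without HM replicate 3 (limma, BH-adjusted p = 0.0302). The median of the 13 genes was 0.02. mt-Atp6 ends and mt-Co3 starts at the same base, 8607. Mitochondrial sequences also have copies in the nuclear genome, so reads of these genes can be shared with such copies.

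**Figure D4:**
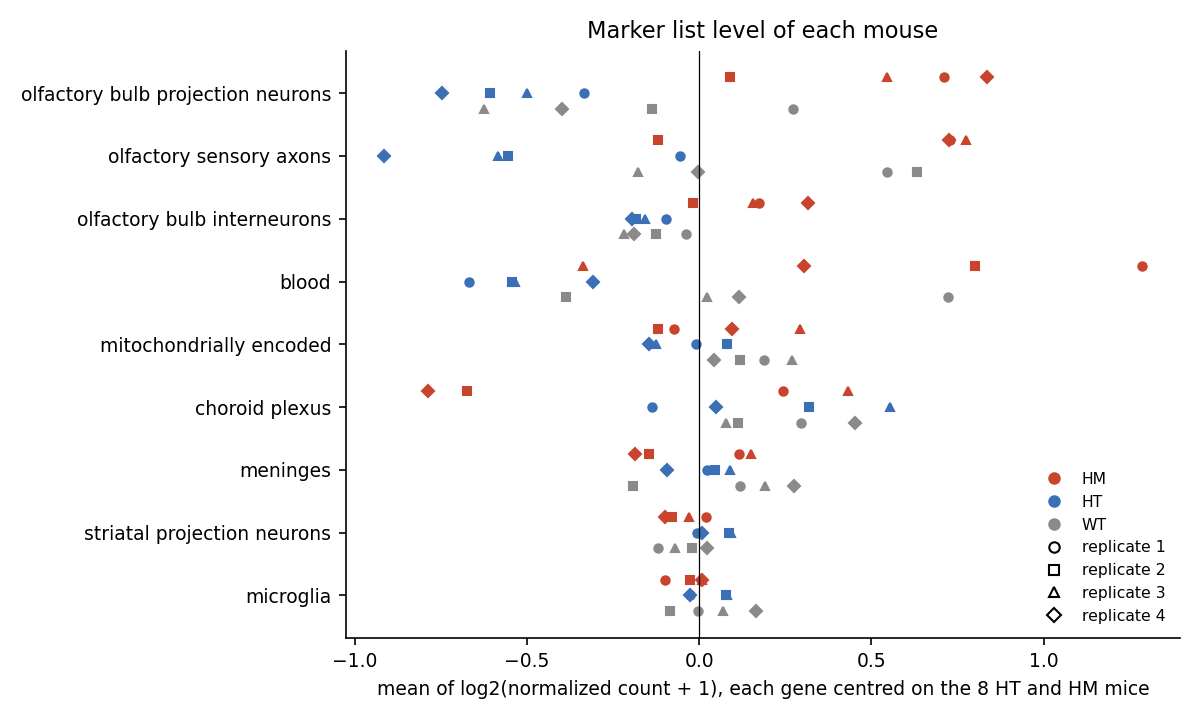
Level of 9 gene lists in each mouse, as the mean over the genes of log2(normalized count + 1) with each gene centred on the 8 HT and HM mice (x axis). Points are mice, coloured by genotype and marked by replicate number. HM and HT mice are apart for the projection neuron and bulb interneuron lists and overlap for the other 7, and HM replicates 2 and 4 are lowest for the choroid plexus list.

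Choroid plexus and meningeal transcripts were examined because Slc6a20a is expressed there. None of 14 choroid plexus genes had an unadjusted p under 0.05 (limma), but all 14 had a log2 fold change below 0, with a median of -0.36 and a range from -0.87 to -0.16. Ttr, transthyretin, the most abundant transcript of this epithelium, had 11304, 14689.8, 18227 and 13339 normalized counts in HT and 14281, 8995, 16267 and 9336 in HM mice. HM replicates 2 and 4 were below all HT mice, and HM replicates 1 and 3 were within their range. The list summed to 10413 to 19077 normalized counts in HM and 13333 to 21405 in HT mice. The 15 meningeal genes gave a median of -0.02, with 0 genes at an unadjusted p under 0.05. Beside these levels, Slc6a20a had 69.0 and 76.5 normalized counts in HM replicates 1 and 3 and 55.6 and 57.1 in HM replicates 2 and 4, and the part of choroid plexus content in its difference was not tested.

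Striatal projection neuron genes were slightly lower, with 14 of 14 log2 fold changes below 0, a median of -0.09 and 2 genes at an unadjusted p under 0.05 (lower: 1.62% of all genes). They were Rasd2, a small GTP-binding protein of the striatum (log2 fold change -0.12, SE 0.04, no overlap), and Ppp1r1b, the dopamine-regulated phosphatase inhibitor DARPP-32 (-0.10, SE 0.04). The list summed to 44480 to 46736 normalized counts in HM and 46595 to 49808 in HT mice. Of 15 microglial genes, 3 were lower and 1 was higher, against 1.62% and 2.11% of all genes. Cx3cr1, the fractalkine receptor, had 987, 1027, 1114 and 1048 normalized counts in HT and 991, 906, 877 and 907 in HM mice, a log2 fold change of -0.18 (SE 0.06) with overlap at 1 mouse. Tmem119 (-0.16, SE 0.06) and the receptor Csf1r (-0.19, SE 0.09) were lower, and Sall1, a transcription factor of microglial identity, was higher (0.14, SE 0.06). Inpp5d, the phosphatase SHIP1 of blood and microglial cells, was among the 12 lower genes with the smallest p, at 462 ± 26.7 normalized counts in HT and 381 ± 30.6 in HM mice (log2 fold change -0.28, SE 0.08, no overlap).

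In the list of endothelium and pericytes, 3 of 16 genes were higher (2.11% of all genes were), namely Abcc9, a potassium channel subunit of pericytes (log2 fold change 0.26, SE 0.08), smooth muscle actin Acta2 (0.18, SE 0.08) and vitronectin Vtn (0.14, SE 0.06). Astrocyte and oligodendrocyte lists had 1 higher gene each, Atp1b2 (0.06, SE 0.03) among 13 and Myrf, the transcription factor of myelination (0.08, SE 0.04), among 14. Of 18 genes of the cortical layers, Syt6 was higher (0.15) and the corepressor Tle4 lower (-0.12). Tdo2 was higher among 10 hippocampal genes (0.71, SE 0.25), and Reln, which encodes the secreted protein reelin, was higher together with Dlx1 among 15 genes of GABAergic interneurons (0.16, SE 0.06). Gpr151, a receptor of the habenula (-0.40, SE 0.17), and Slc17a6, the vesicular glutamate transporter VGLUT2 (-0.11, SE 0.04), were lower among 9 genes of thalamus and habenula, and vasopressin, Avp, was lower among 11 hypothalamic genes (-0.29, SE 0.12). None of the 16 cerebellar and 2 pituitary genes tested reached an unadjusted p under 0.05 (limma), and of 7 genes of monoamine neurons only Th did. Of 9 hindbrain genes, 1 was analysed here and did not pass.

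Transcripts of the pathways around the transporter differed little. At an unadjusted p under 0.05, 2.11% of all genes were higher and 1.62% were lower. Of 14 transporters of glycine, proline and related amino acids, 1 was higher and 2 were lower, the latter being Slc6a20a and Slc6a20b. The higher one was Slc38a5, which carries glutamine, glycine and serine, with 46.0, 58.6, 56.1 and 48.0 normalized counts in HT and 78.1, 87.4, 69.95 and 61.2 in HM mice. All HM mice exceeded all HT mice for Slc38a5, which gave 0.49 on the log2 scale (SE 0.16, limma, unadjusted p = 0.00890). Slc6a9, the glial glycine transporter GlyT1, had 1854 ± 135 normalized counts in HT and 1897 ± 83.2 in HM mice, a log2 fold change of 0.03 with a 95% interval of -0.09 to 0.15. None of 8 other SLC6 transporters and none of 8 genes of proline metabolism reached an unadjusted p under 0.05 (limma). Glycine and serine metabolism had 14 tested entries. Of these, 2 were of Gcat, with log2 fold changes of 1.31 and -0.21, neither at an unadjusted p under 0.05. The 1 lower entry was Shmt1, the cytosolic enzyme that interconverts serine and glycine. Shmt1 had 106 ± 19.6 normalized counts in HT and 79.0 ± 24.1 in HM mice (-0.46, SE 0.21).

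None of 7 NMDA receptor subunits and none of 5 genes of glycine receptors and gephyrin reached an unadjusted p under 0.05 (limma). Grin1, the obligate subunit that binds glycine, had 20084, 18682, 20202 and 20225 normalized counts in HT and 19050.4, 19678, 21222 and 19589 in HM mice. The difference for Grin1 was 0.0059 on the log2 scale, with a 95% interval of -0.08 to 0.09. The glutamate-binding subunits Grin2a (95% interval -0.06 to 0.12) and Grin2b (-0.09 to 0.18) likewise had intervals that span 0.

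Each of the other synaptic lists held at most 2 genes past an unadjusted p of 0.05. Of all genes tested, 2.11% were higher and 1.62% were lower at this p. Of 16 AMPA receptor genes and auxiliary proteins, 2 were higher, Cacng8, the auxiliary subunit TARP gamma-8 (log2 fold change 0.16, SE 0.05, no overlap), and Shisa7, an auxiliary protein of inhibitory and excitatory receptors (0.12, SE 0.04). Of 22 adhesion genes, Mdga1, which binds neuroligins, was higher (0.13, SE 0.06). Slc17a6 was the 1 gene of 26 on the presynaptic list past this threshold. None of 17 immediate early genes and none of 20 glucocorticoid-responsive genes reached it (limma), and 1 of 17 circadian clock genes, Tef, was lower (-0.08, SE 0.04).

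**Figure D5:**
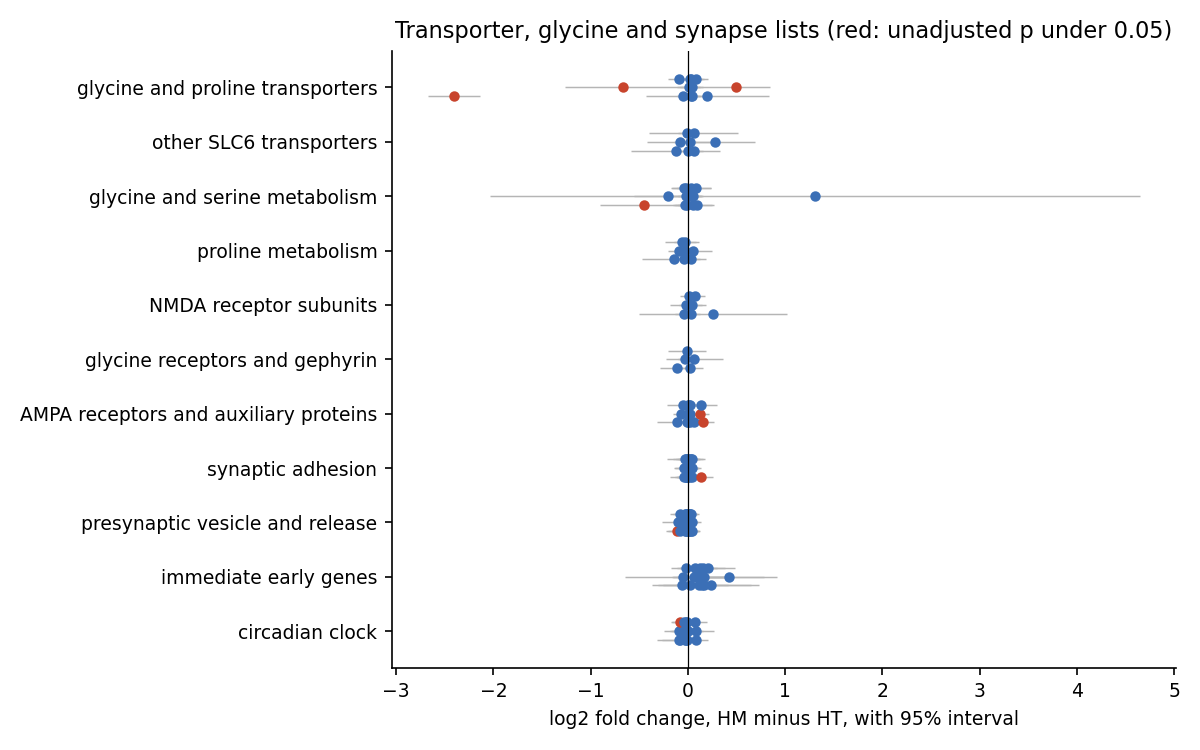
Log2 fold change of HM minus HT mice (x axis) for every tested member of 11 lists of transporters, glycine and proline metabolism, receptors and synaptic proteins. Each point is a gene with its 95% interval as a grey line, and red points have an unadjusted p under 0.05. Apart from Slc6a20a at -2.41, nearly all points lie close to 0.

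Genes of protein synthesis and respiration were nearly level. Of 81 cytosolic ribosomal protein genes, 1 was lower, Rpl11 (log2 fold change -0.10, SE 0.04), and 1 was higher, Rps27 (0.50, SE 0.22), which was listed at only 67.1 ± 10.5 normalized counts in HT mice and may share reads with related copies. Of all genes tested, 1.62% were lower and 2.11% were higher. The median over the ribosomal list was -0.02. None of 77 mitochondrial ribosomal protein genes reached an unadjusted p under 0.05 (limma), with a median of 0.00060. Of 79 nuclear genes of the respiratory chain, 3 were lower, against 1.62% of all genes. They were Ndufb9 (-0.09, SE 0.03), Ndufb6 (-0.12, SE 0.05) and Ndufb3 (-0.12, SE 0.05), which encode subunits of complex I.

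Outside these lists, the higher genes with the smallest p were Grk4, Tonsl and the pseudogene Gm12504. Grk4, a kinase of G protein-coupled receptors, had 66.5, 79.5, 57.6 and 66.1 normalized counts in HT and 149, 98.5, 136 and 101 in HM mice, without overlap (log2 fold change 0.82, SE 0.16, limma, BH-adjusted p = 0.456). Tonsl, a protein of DNA repair at replication forks, had 237, 247, 215 and 333 in HT and 360.2, 446, 371 and 383 in HM mice (0.61, SE 0.12). HT replicate 4 was the nearest to the HM mice, and WT mice had 366 ± 43.2, close to the HM level. Gm12504 (chromosome 4, 44121893 to 44124123), a transcribed processed pseudogene that could share reads with its parent gene, had 8.54 ± 2.73 in HT and 26.9 ± 5.60 normalized counts in HM mice.

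The lower genes with the smallest p were led by Inpp1, an inositol phosphate phosphatase, with 1311, 1395, 1309 and 1204 normalized counts in HT and 934, 996, 851 and 1173 in HM mice. There was no overlap for Inpp1, whose difference was -0.41 on the log2 scale (SE 0.08, limma, BH-adjusted p = 0.474). Sec62, a subunit of the protein translocation machinery of the endoplasmic reticulum, had 5702, 5649, 5652 and 5728 in HT and 5334, 4586, 4612 and 5064 in HM mice (-0.22, SE 0.05). The HT mice were nearly equal for Sec62, and the HM mice were all below them.

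The zinc finger genes Zfp568 (-0.48, SE 0.12) and Zfp592 (-0.26, SE 0.07), the X-linked gene Xlr3a (-0.77, SE 0.19), which has close copies nearby, the peroxisomal lyase Hacl1 (-0.50, SE 0.13) and Yae1d1 (-0.18, SE 0.05) were lower without overlap. Of all 378 tested genes whose symbol begins with Zfp and a number, 8 were lower and 5 were higher at an unadjusted p under 0.05. Of all genes tested, 1.62% were lower and 2.11% were higher at this p. Groups overlapped for the calcium channel subunit Cacna2d4 (-0.57, SE 0.15) and the pseudogene Pisd-ps1 (-0.50, SE 0.12). Gm49450, a gene model that spans the tubulin genes Tuba1a and Tuba1b, had 91.2, 55.0, 0 and 84.3 normalized counts in HT mice and was listed at 0 in all 4 HM mice and all 4 WT mice, so it is reported as uncertain.

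The genes that the study lists for each mutant genotype against WT were also examined in this contrast, and their choice on the same mice means that they are no independent set. Of the 13 genes listed for HT mice, 3 had an unadjusted p under 0.05 between HM and HT mice, Slc6a20a, Ppp1r26 (log2 fold change -0.13, SE 0.05) and the spliceosome protein gene Snrnp70 (0.07, SE 0.03). Of all genes tested, 3.74% had such a p, 2.11% higher and 1.62% lower. Of the 33 listed for HM mice, 13 were higher and 1, Slc6a20a, was lower, and 8 of the 13 belong to the olfactory bulb lists. The 5 others were Gtf3c4, a subunit of a transcription factor of RNA polymerase III (0.25, SE 0.07), Pcbp3, an RNA-binding protein (0.14, SE 0.04), Cacng8, Mdga1 and Atp1b2. Gtf3c4 had 1465, 1521, 1447 and 1845 normalized counts in HT and 1885, 1780.2, 1881 and 1901 in HM mice, and HT replicate 4 lay within the HM range.

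Nlgn3, Tenm3 and Cdc73, which the study lists in both genotypes, were not distinguishable between HM and HT mice. Nlgn3, the synaptic adhesion protein neuroligin-3, had 4472 ± 175 normalized counts in HT and 4403 ± 204 in HM mice (95% interval of the log2 fold change -0.11 to 0.07). Tenm3, the adhesion protein teneurin-3, had 3509.6 ± 145 in HT and 3577 ± 175 in HM mice (-0.07 to 0.12). Cdc73, a subunit of the PAF1 complex of transcription, varied more, with 1999, 1771, 1481 and 2165 normalized counts in HT and 1523, 2107, 1689 and 1993 in HM mice (-0.27 to 0.24).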

How the data were processed

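Whole-brain RNA of 12 mice was sequenced, and 8 mice (4 HT, 4 HM) were compared. Per the labels and the study's methods, the authors selected poly-A RNA, read libraries of the TruSeq RNA kit from both ends, quantified reads on GRCm38 with Salmon 1.1.0, summed them per gene with tximport and normalized them with DESeq2 1.30.1. The deposited values are this normalized signal, counts divided by size factors, so depth is not known from them, and their sums, 33464395 to 33748623 over the 8 mice, do not show it. No library stood apart.

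Genotypes came from the sample titles, and columns named KO matched the titles that read homozygous. Symbols and positions came from GENCODE M21, in which 19758 of 19775 identifiers matched and 17 did not. Values were compared as log2(value + 1) with limma 3.58.1 in R 4.3.3 (prior variance following the mean, BH threshold 0.05). The fit was tested on simulated data. P-values weigh the difference between genotypes against the spread between mice of the same genotype, moderated over all genes. Lists are described by counts and medians, without a test. The genes named were Slc6a20a, Slc6a20b, those past the threshold, the 12 with the smallest p in each direction, the 4 with the smallest p under 0.05 per list, study-listed genes with p under 0.05, and the defining markers. Sp8, Pbx3, Calb2, Shisa3, Gm47171, Gm35549, Gm37206, mt-Co3, Nlgn3, Tenm3, Cdc73, Slc6a9, Grin1, Grin2a, Grin2b, Duxbl1, Gm13736 and Gm43546 were added after their values were seen. 1 further named gene is not reported here. The contrast and all lists were chosen with earlier results of these data known. Alternatives were a pseudocount of 0.1, other filters, quantile scaling, TMM scaling written out for this purpose in place of the planned package, which is kept for counts, other variance priors, a replicate block and leaving out each mouse.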

Additional observations from a re-analysis of the deposited data

Results flagged for a closer look

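Among the genes described, 10 groups of 4 mice held 1 mouse far from the other 3, by Dixon's criterion at its 95% level, which chance alone reaches in about 1 in 20 groups. The groups examined numbered 174. HM replicate 3 stood apart for Slc4a1, at 45.1 normalized counts against 8.0 to 8.41 in the other HM mice, for mt-Co3, at 99916 against 20416 to 26353, and for Grin2a, at 8458 against 8989 to 9068. HM replicate 2 was the low mouse for Scgn, at 31.1 against 46.0 to 47.0, and for Gtf3c4, at 1780.2 against 1881 to 1901. HT replicate 1 was low for Snrnp70, at 12712 against 13527 to 13669, and for Tef, at 13410.1 against 14533 to 14760.4. HT replicate 3 was high for Sall1, at 726 against 648 to 658, and for Rps27, at 82.8 against 60.1 to 63.4. HT replicate 2 was low for Grin1, at 18682 against 20084 to 20225.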

How the results depend on the processing

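Slc6a20a kept its direction and its call under every alternative tried, with log2 fold changes from -2.49 to -2.34 when each mouse was left out. The number of genes past the adjusted threshold (limma, BH) was 1 under a pseudocount of 0.1, the filter of at least 10 in each mouse, quantile or TMM scaling, both other variance priors and the replicate block, and 2 with no filter, which added Duxbl1. Leaving out 1 mouse at a time gave 1 to 7 genes: 7 without HM replicate 2, 7 without HM replicate 3, 3 without HT replicate 3 (Pisd-ps1 and Gm49450 besides Slc6a20a), 3 without HT replicate 4 (Tonsl and Gm13736) and 2 without HT replicate 2 (Gm43546). Replicate numbers do not pair these mice, since the deviations of same-numbered HT and HM mice correlated between -0.048 and 0.025 across genes. With the replicate block 595 genes had an unadjusted p under 0.05, against 672 without it. The sign turned when 1 mouse was left out for Nlgn3 (log2 fold change -0.045 to 0.0033), Cdc73 (-0.12 to 0.066), Slc6a9 (-0.0030 to 0.074), Grin1 (-0.026 to 0.026), Grin2a (-0.0055 to 0.055) and Grin2b (-0.033 to 0.091), none of which was called. The cause of these changes was not tested. With 4 mice per genotype, the interval of the median gene spans 0.17 to either side, so at such a gene a smaller estimate cannot be told apart from 0. This half-width differed between genes, with a lower quartile of 0.11 and an upper quartile of 0.36.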
